A study of Homo sapiens with 4 samples.

Results

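The 48 genes described here drive and carry out the cell cycle. They were taken as a fixed list, by name, from the 19974 protein-coding genes of the RefSeq table. No measured value set which genes entered, though earlier results of these data were known when the list was chosen. Single-cell ATAC-seq, which marks open chromatin by transposase insertion, was applied to nuclei of Panc1, an established human pancreatic ductal adenocarcinoma line, recovered from transplanted mice. One group was treated with Inflachromene, a compound whose known partners are HMGB1 and HMGB2, and holds 2 libraries, from mice 11 and 35. Its control was given Carrier and holds 2 libraries, from mice 12 and 31. The labels state 1 mouse a library and give no dose, duration of treatment, strain, sex or age of the mice; the tissue is given as pancreas. All 4 libraries hold the same line, so no other line was compared. All deposited barcodes were used, and no host nuclei were removed. The host's own cells are of another species, and only signal placed on the human build GRCh38 was analysed. The question asked here was how open the chromatin of these genes was in each mouse and whether Inflachromene and Carrier mice differed.

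Entry into the cell cycle is set by cyclin D with CDK4 or CDK6 and by cyclin E with CDK2, which phosphorylate RB and free the E2F factors to switch on replication genes. Those genes load the MCM helicase on origins, activate it and feed the polymerases. Later in the cycle a B-MYB and FOXM1 programme switches on the mitotic cyclins, kinases, motors and kinetochore proteins, and the DREAM repressor complex holds the same promoters silent in resting cells. In pancreatic carcinoma the RB and E2F axis is known for its frequent deregulation.

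The elements that these regulators read can be seen in the promoters themselves. A set of 8 is shown because it holds clear examples of the elements, chosen after the matches were seen, 4 replication and entry genes and then 4 mitotic genes. Each is the stretch of 160 bases that ends just before the first RefSeq start, in GRCh38.p14, written 5′ to 3′ on the strand of the gene. Capitals mark E2F cores (TTCCCGC or TTGGCGC or TTCGCGC), the cell cycle homology region or CHR (TTTGAA or TTCGAA), which DREAM and B-MYB complexes contact, and the CCAAT box of the NF-Y factor, on either strand and wholly inside the stretch; overlapping matches run together. A match is placed by its first base on the strand of the gene.
MCM3: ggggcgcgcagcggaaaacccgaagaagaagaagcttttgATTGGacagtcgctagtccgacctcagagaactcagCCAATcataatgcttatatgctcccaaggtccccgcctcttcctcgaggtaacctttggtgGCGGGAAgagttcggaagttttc
MCM6: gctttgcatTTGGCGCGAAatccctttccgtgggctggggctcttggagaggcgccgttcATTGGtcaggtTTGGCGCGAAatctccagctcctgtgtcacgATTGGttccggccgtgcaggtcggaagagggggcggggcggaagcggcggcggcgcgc
PCNA: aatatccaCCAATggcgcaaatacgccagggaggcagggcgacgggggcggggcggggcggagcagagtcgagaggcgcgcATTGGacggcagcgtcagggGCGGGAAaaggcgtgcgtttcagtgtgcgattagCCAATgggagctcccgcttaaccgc
E2F1: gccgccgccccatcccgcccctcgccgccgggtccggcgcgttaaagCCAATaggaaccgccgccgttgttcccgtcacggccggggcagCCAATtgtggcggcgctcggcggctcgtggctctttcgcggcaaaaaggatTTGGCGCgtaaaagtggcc
CCNB2: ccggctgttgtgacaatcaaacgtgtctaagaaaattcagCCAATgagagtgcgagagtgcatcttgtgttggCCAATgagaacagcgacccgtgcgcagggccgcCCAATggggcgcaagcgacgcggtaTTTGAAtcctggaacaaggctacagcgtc
PLK1: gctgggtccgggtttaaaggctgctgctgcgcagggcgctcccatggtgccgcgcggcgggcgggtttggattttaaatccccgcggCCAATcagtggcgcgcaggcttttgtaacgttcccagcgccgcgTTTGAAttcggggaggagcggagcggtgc
CDC20: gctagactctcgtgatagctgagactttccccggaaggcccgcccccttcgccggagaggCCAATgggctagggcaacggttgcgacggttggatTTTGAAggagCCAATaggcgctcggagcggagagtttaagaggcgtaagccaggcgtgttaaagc
MKI67: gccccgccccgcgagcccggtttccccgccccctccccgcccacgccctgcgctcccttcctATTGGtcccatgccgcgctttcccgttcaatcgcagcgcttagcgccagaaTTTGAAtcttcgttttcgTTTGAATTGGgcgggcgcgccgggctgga
The stretches lie at chr6:52284743-52284902 (MCM3, minus strand), chr2:135876444-135876603 (MCM6, minus strand), chr20:5126623-5126782 (PCNA, minus strand), chr20:33686386-33686545 (E2F1, minus strand), chr15:59104986-59105145 (CCNB2, plus strand), chr16:23678729-23678888 (PLK1, plus strand), chr1:43358821-43358980 (CDC20, plus strand) and chr10:128126424-128126583 (MKI67, minus strand). In MCM6, a subunit of the replicative helicase, TTGGCGC and the reverse strand's TTCGCGC overlap at a pair of places, starting 151 and 89 bases before the start. PCNA, the sliding clamp, has 1 E2F core 59 bases before its start among 3 CCAAT boxes, and E2F1 itself has 1 core 19 bases before its start. In the mitotic set, CCNB2, a B-type cyclin, has CCAAT boxes 120, 87 and 54 bases before the start, followed by TTTGAA at 29. PLK1, a mitotic kinase, also has TTTGAA at 29, below a CCAAT box at 73. CDC20, an activator of the anaphase-promoting complex, has TTTGAA at 65 between CCAAT boxes at 100 and 55.

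Promoter sequences were found for 37 of the 48 genes, and the whole window of 250 bases before to 50 after the first listed start was searched on both strands. An E2F core was present in 13 of 18 promoters of G1 and S genes (72.2%) and in 4 of 19 of G2 and mitosis genes (21.1%). The CHR ran the other way, in 1 of 18 (5.56%) and 13 of 19 (68.4%). A CHR together with a CCAAT box was found in 1 of 18 (5.56%) and 12 of 19 (63.2%). Among 15812 protein-coding genes with a promoter sequence, 14.8% held an E2F core, 13.5% a CHR, 36.3% a CCAAT box and 5.55% a CHR with a CCAAT box, and over all 27305 genes of the promoter table the shares were 11.2%, 16.6%, 35.7% and 6.58%. The CCAAT box was common on both sides of the cycle, in 28 of the 37 (75.7%). All 4 genes of the polymerase and clamp group had an E2F core, and 7 of 9 licensing and helicase genes had one. CCNE1, CDK4, CDK6, MYBL2 and CENPE had none of the listed letters in this window. These matches are descriptions of sequence, and the genes are a list chosen for their roles, so the shares carry no test.

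**Figure D1:**
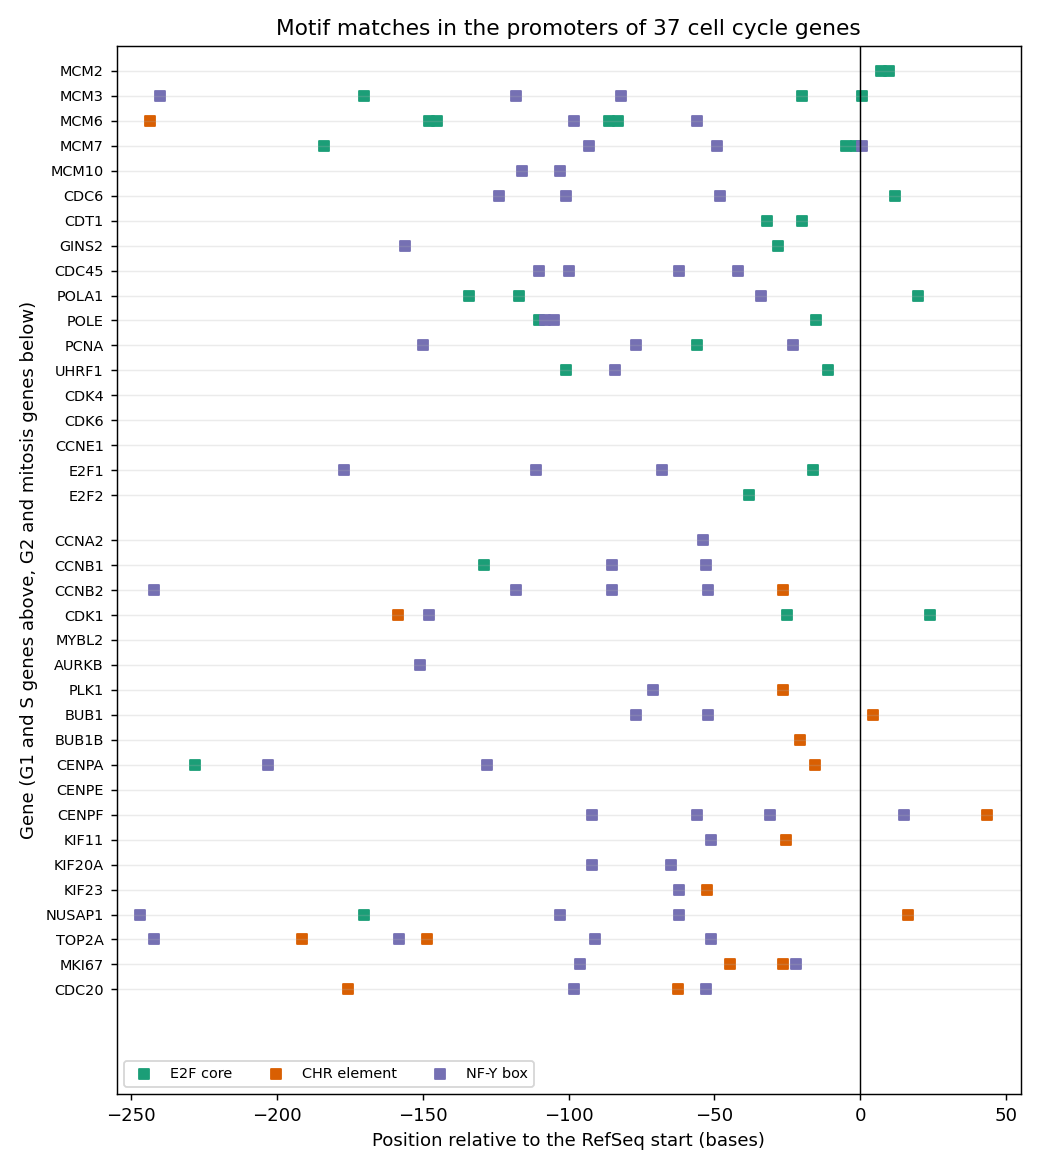
Positions of E2F cores (green), CHR elements (orange) and NF-Y boxes, the CCAAT motif (purple), relative to the first RefSeq start in bases, for 37 cell cycle genes, 1 row a gene. Green marks lie mostly in the upper block of G1 and S genes (13 of 18) and orange marks in the lower block of G2 and mitosis genes (13 of 19).

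The libraries held 27088391 and 39947056 counts (Inflachromene 11 and 35), against 33336531 and 29295799 (Carrier 12 and 31), in 2039 to 5186 barcodes. Some barcodes occur in more than 1 library: 1617 of 12859 distinct ones, of which 1209 were common to Inflachromene 11 and Carrier 12 and 357 to Carrier 12 and Carrier 31. Few were deep, with at least 2000 counts, in both libraries of a pair (2 to 10). Barcodes with more counts in another library carried 0.988% and 0.228% of the counts in Inflachromene 11 and 35, against 0.799% and 0.0407% in Carrier 12 and 31, and keeping each shared barcode only where it had most counts changed no call and no sign among the 48 start sites. The share of consensus-region counts that fell at start sites of any gene was 51.9% and 47.1% in Inflachromene 11 and 35, against 47.3% and 50.7% in Carrier 12 and 31, so the libraries of each group differed from each other more than the groups did. Of the carcinoma markers, KRT8, KRT18, KRT19, EPCAM and VIM had an open start-site region in all 4 libraries and KRT7 did not. Start-site regions were also found for 3 of 5 fibroblast, 1 of 4 endothelial, 4 of 5 myeloid and 1 of 4 T and NK markers, and for no B, acinar, endocrine or Schwann marker; summed fibroblast marker levels were 113 and 103 CPM in Inflachromene mice, against 112 and 121 CPM in Carrier mice, and summed myeloid levels 81.4 and 83.3 CPM, against 83.9 and 81.8 CPM. Endothelial levels, from CLDN5, were 6.05 and 4.31 CPM in Inflachromene mice, against 6.42 and 5.01 CPM in Carrier mice, and T and NK levels, from CD3E, 8.76 and 10.9 CPM, against 9.13 and 6.96 CPM. DCN, LUM, PECAM1, CDH5, VWF, PTPRC, CD3D, CD2 and NKG7 had no start-site region. Open chromatin at a marker does not show that it is expressed, and the part of other cells in the results was not tested. All values are sums over the nuclei of a library, in which fewer open nuclei and less open chromatin per nucleus cannot be told apart.

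All 48 genes had an open region at their start, or at the gene end used in its place, in all 4 libraries. Levels are given in CPM, the counts of a region relative to the library's total in consensus regions, with TMM scaling, where a consensus region is a merged peak found in every library. A region within 1000 bp of the RefSeq start, or of a gene end where no start was placed, was found in every library for 48 of 48 genes, against 12785 of 19974 protein-coding genes (64.0%). The regions were 649 to 1735 bp wide and held 360 to 3752 counts each in a library. Ranked by mean CPM per kb among the 11389 start-site regions of all protein-coding genes, the 48 had a median percentile of 69.7, 35 lay above the middle and 9 among the highest 10%. The kinetochore and spindle genes had a median percentile of 84.3 and the licensing and helicase genes one of 76.0, while the polymerase and clamp genes had 36.6 and the mitotic cyclins and transcription factors 45.2. TPX2, an activator of Aurora A on the spindle, stood highest at the percentile of 98.5, ahead of the end used for CDK2 (96.1), CDC6 (95.6) and TOP2A (95.2). CDT1, the licensing factor that loads MCM with CDC6, stood lowest at 16.3 and E2F2 next at 26.7.

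A few start-site regions are not of 1 gene alone. RefSeq starts were placed for 37 genes, and for MCM4, MCM5, CCNE2, E2F8, CDK2, AURKA, TPX2, BIRC5, FOXM1, UBE2C and CCND1 the outer gene end with the higher level was used. The start-site region is also that of a neighbour for 10 of the 48 (20.8%, against 21.5% of genes): MCM4 with PRKDC, MCM7 with AP4M1, PCNA with CDS2, CCNE2 with NDUFAF6, POLE with PXMP2, CDC45 with UFD1, CDK2 with RAB5B, AURKA with CSTF1, KIF20A with BRD8 and NUSAP1 with OIP5. For CDK2 the assignment is uncertain, since the region used lies 563 bp outside the gene and its values may be those of RAB5B alone. The other end of the gene lies in a region that is also the start-site region of PMEL. That region measured 33.9 and 31.6 CPM in Inflachromene 11 and 35, against 27.4 and 29.7 CPM in Carrier 12 and 31 (log2 fold change 0.20). CCNE2 has a similar doubt: the region used lies 703 bp from the gene end, and the one that holds the end was weaker, from 8.68 CPM in Inflachromene 35 to 15.7 CPM in Inflachromene 11, with a log2 fold change of -0.07.

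**Figure D2:**
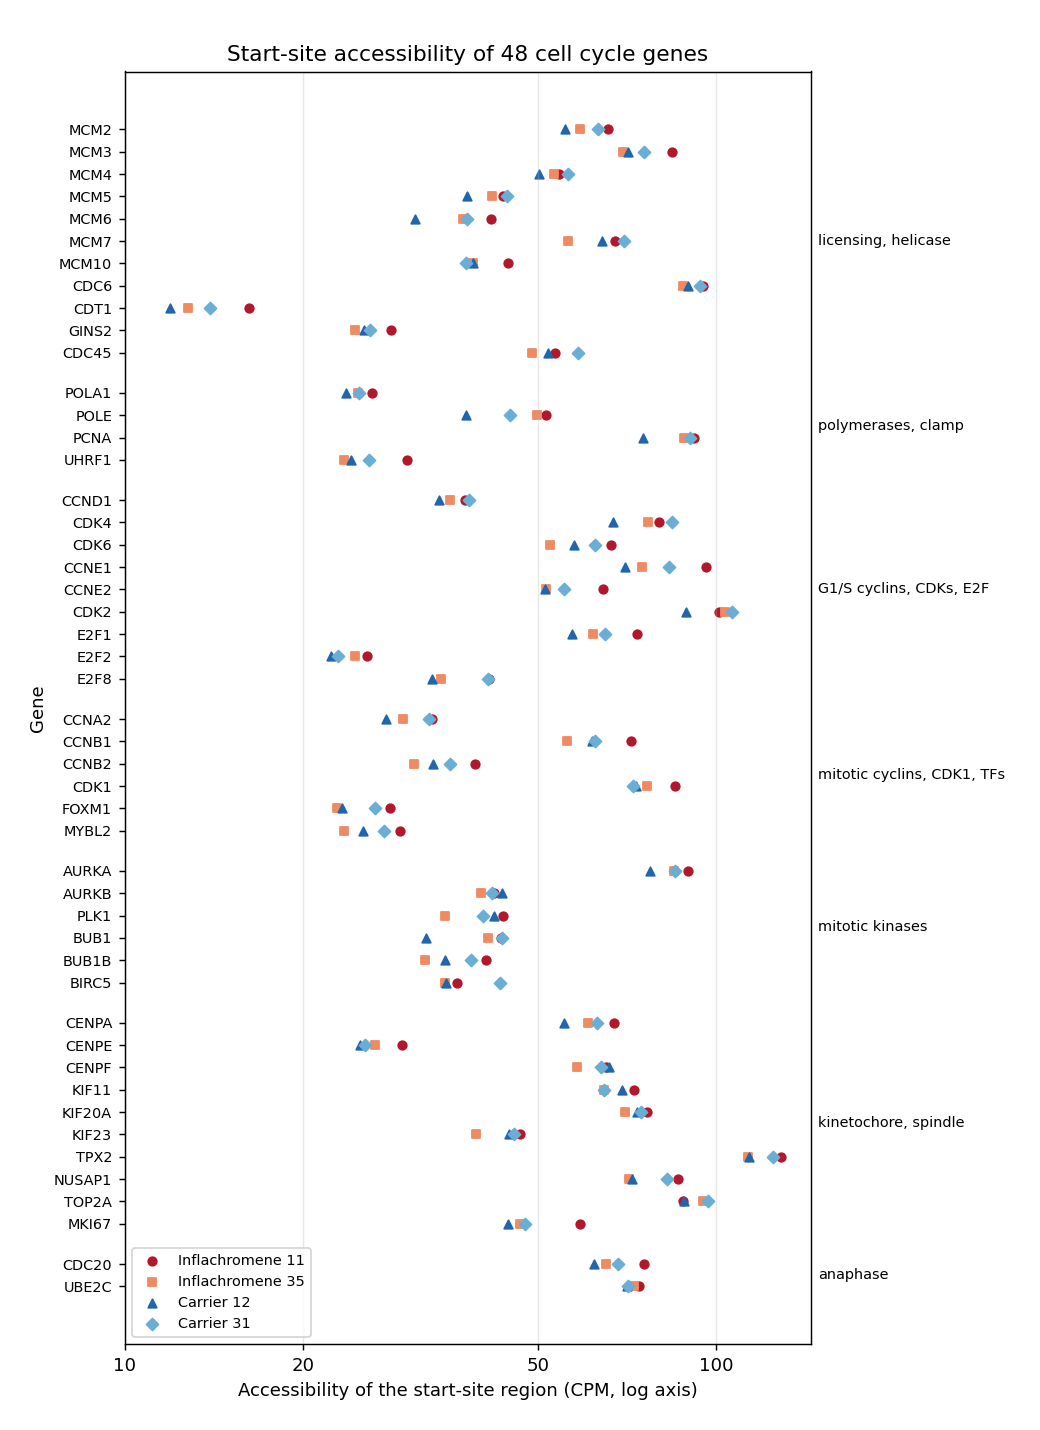
Accessibility of the start-site region of 48 cell cycle genes in CPM (log axis), 1 row a gene grouped by role, with 1 point for each library (red circles Inflachromene 11, orange squares Inflachromene 35, dark blue triangles Carrier 12, light blue diamonds Carrier 31). Levels run from 11.9 CPM at CDT1 to 129 CPM at TPX2, and within a gene the 4 libraries lie within 1.37-fold of each other.

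None of the 48 start sites passed the test of Inflachromene against Carrier mice. Of the 48, 35 had a log2 fold change (Inflachromene over Carrier) above 0 and 13 below; over all start-site regions 65.6% were above 0. The median was 0.05, against 0.04 over all start-site regions, and values ran from -0.13 at BIRC5 to 0.30 at POLE. With edgeR's quasi-likelihood test, adjusted over 50771 consensus regions, 0 of 48 passed an adjusted p of 0.05 (smallest adjusted p 0.9996), beside 0 of all regions (0%). None of the 48 had an unadjusted p under 0.05 either, against 1.65% of start-site regions, and DESeq2 called 0 of the 48 and 0.0653% of the regions it tested. The groups did not overlap, with Inflachromene higher, at 6 of the 48 (MCM10, POLE, E2F2, CDK1, CENPE and UBE2C), a share read against 14.9% of all start-site regions, and with Inflachromene lower at 0 of the 48, against 6.17%.

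The sizes that these libraries leave possible are limited. At 48 of 48 start sites the 95% interval (log2) fell between -1 and 1, and at 38 between -0.5 and 0.5, with the lowest bound at -0.494 and the highest at 0.639. With a fit of start-site regions alone, chosen after seeing the data, the median standard error fell to 0.086, against 0.158, and 47 of the 48 intervals lay between -0.5 and 0.5. In that fit 25 of the 48 lay above 0 and 23 below, with a median of 0.01, 0 passed the adjusted threshold, and 1, POLE, had an unadjusted p under 0.05 (log2 fold change 0.26, edgeR adjusted p 0.782), beside 5.73% of all start-site regions.

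The difference of the group means was smaller than the larger of the 2 gaps within a group at 45 of the 48 (93.8%), against 87.4% of all start-site regions. Inflachromene 11 stood above Inflachromene 35 at 46 of 48, and above all other libraries at 36, against 85.1% and 59.2% of all start-site regions. Among Carrier libraries, mouse 31 stood above mouse 12 at 42 of 48, against 79.7% of all start-site regions. Summed over the 48 start sites the levels were 2830 and 2521 CPM in Inflachromene 11 and 35, against 2463 and 2698 CPM in Carrier 12 and 31. As a share of the counts at all start sites they were almost the same, 0.532% and 0.535% in Inflachromene 11 and 35, against 0.537% and 0.529% in Carrier 12 and 31.

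**Figure D3:**
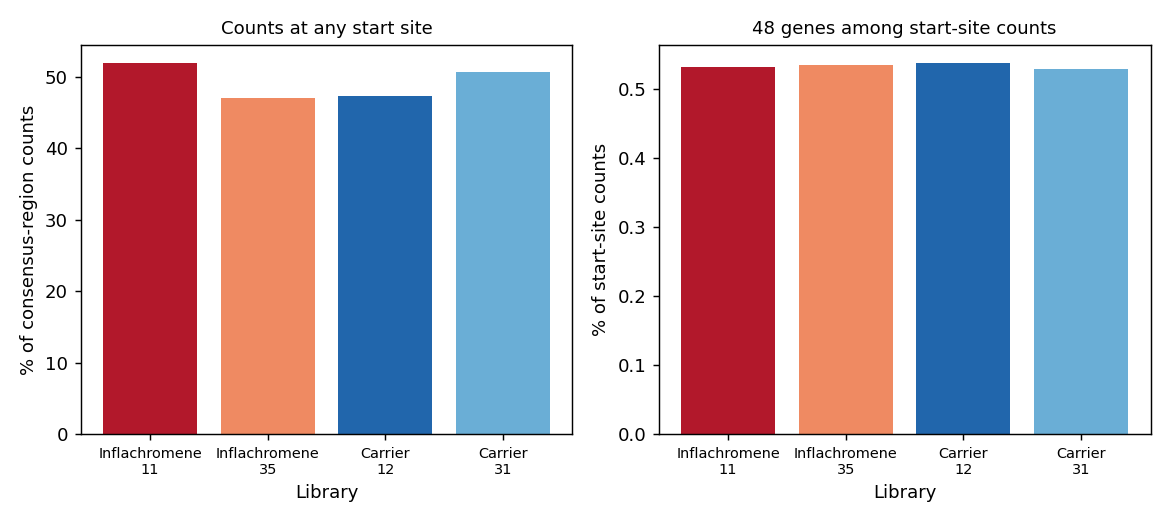
Left, share of consensus-region counts at the start sites of all protein-coding genes, in percent, for each of the 4 libraries; right, share of those start-site counts that fell at the 48 cell cycle genes, in percent. The left bars run from 47.1% (Inflachromene 35) to 51.9% (Inflachromene 11), while the right bars lie between 0.529% and 0.537%.

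Counts above 0 by role move with the scaling, as do those of all start-site regions. Of the latter, 65.6% lay above 0 in the fit over all consensus regions. The share was 49.5% with start sites fitted alone, 53.8% with an offset for windows of 10 Mb and 69.8% with DESeq2's size factors. With those size factors 9 of 11 licensing, 6 of 6 mitotic cyclin and transcription factor, and 3 of 6 mitotic kinase genes lay above 0. Counts of the other roles were then as in the fit over all consensus regions. Among the 11 licensing and helicase genes, 8 lay above 0 (6 fitted alone and 7 with the window offset) and none passed the test, with a median log2 fold change of 0.05. MCM2, a helicase subunit (chr3:127597891-127598797), measured 65.7 and 59.0 CPM in Inflachromene 11 and 35, against 55.5 and 63.0 CPM in Carrier 12 and 31. The groups overlapped, and the log2 fold change was 0.07 ± 0.15 (SE, n = 2 each). MCM7, another subunit, measured 67.5 and 56.2 CPM in Inflachromene mice, against 64.0 and 69.8 CPM in Carrier mice, with the lowest value in Inflachromene 35 and a log2 fold change of -0.11 ± 0.16. A second open region holds the first listed start of MCM7 and measured 64.5 and 58.1 CPM in Inflachromene 11 and 35, against 66.8 and 66.8 CPM in Carrier 12 and 31. MCM6, whose paired E2F cores are shown above, measured 41.7 and 37.3 CPM in Inflachromene mice, against 30.9 and 37.9 CPM in Carrier mice. Carrier 12 was the low library there, the log2 fold change was 0.20 ± 0.17, and the window of 10 Mb around it was itself higher by 0.15 (log2) in the Inflachromene libraries.

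CDC6, which loads MCM together with CDT1, measured 94.9 and 87.9 CPM in Inflachromene 11 and 35, against 89.6 and 94.0 CPM in Carrier 12 and 31, and the groups covered the same range. CDT1 measured 16.2 and 12.8 CPM in Inflachromene mice, against 11.9 and 13.9 CPM in Carrier mice; its counts are the lowest of the list and its standard error of 0.21 the largest. CDC45, which completes the active helicase with MCM and GINS, measured 53.4 and 48.9 CPM in Inflachromene mice, against 51.9 and 58.4 CPM in Carrier mice (log2 fold change -0.11 ± 0.15). MCM10, a helicase activator, is the 1 licensing gene with groups that did not overlap, at 44.4 and 38.82 CPM in Inflachromene mice, against 38.75 and 37.7 CPM in Carrier mice.

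All 4 genes of the polymerase and clamp group lay above 0, also when fitted alone but not with the window offset (3 of 4), with a median log2 fold change of 0.11, and none passed the test. POLE, the catalytic subunit of the leading-strand polymerase (chr12:132686554-132687898), measured 51.6 and 49.8 CPM in Inflachromene 11 and 35, against 37.8 and 44.8 CPM in Carrier 12 and 31. Both Inflachromene libraries stood above both Carrier libraries, by a log2 fold change of 0.30 ± 0.15 (edgeR, unadjusted p 0.082, adjusted p 0.9996), and the region is shared with PXMP2. PCNA measured 91.5 and 88.1 CPM in Inflachromene mice, against 75.1 and 90.4 CPM in Carrier mice; Carrier 12 alone was low. POLA1, the catalytic subunit of the primase complex's polymerase, and UHRF1, which guides maintenance methylation to new DNA, had log2 fold changes of 0.07 and 0.10.

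Of the 9 G1 and S cyclins, kinases and E2F factors, 8 lay above 0 (median 0.07; 6 fitted alone and 7 with the window offset) and none passed the test. E2F1, an activator of replication genes, measured 73.5 and 61.8 CPM in Inflachromene 11 and 35, against 57.0 and 65.0 CPM in Carrier 12 and 31. The groups overlapped and the log2 fold change was 0.15 ± 0.16. E2F2, a second activator, measured 25.7 and 24.5 CPM in Inflachromene mice, against 22.3 and 22.97 CPM in Carrier mice, without overlap and with the same log2 fold change of 0.15 ± 0.16. CCNE1, encoding cyclin E1, measured 96.2 and 74.8 CPM in Inflachromene mice, against 70.0 and 83.2 CPM in Carrier mice, and Inflachromene 11 stood highest. CCNE2 measured 64.4 and 51.5 CPM in Inflachromene mice, against 51.3 and 55.3 CPM in Carrier mice, in the region with the uncertain assignment given above.

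CCND1, encoding cyclin D1, measured 37.6 and 35.5 CPM in Inflachromene 11 and 35, against 34.0 and 38.2 CPM in Carrier 12 and 31. CDK4, a partner of D cyclins, measured 80.1 and 76.8 CPM in Inflachromene mice, against 67.0 and 84.2 CPM in Carrier mice, so that the Carrier libraries were both the lowest and the highest. CDK6, the other partner, measured 66.5 and 52.3 CPM in Inflachromene mice, against 57.4 and 62.5 CPM in Carrier mice, with the Inflachromene libraries at both extremes. The log2 fold changes were 0.05 for CDK4 and -0.01 for CDK6.

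Of the 6 mitotic cyclins, CDK1 and transcription factors, 5 lay above 0 (median 0.04), but 2 when fitted alone and 3 with the window offset, and none passed the test. CDK1, the kinase that drives entry into mitosis, measured 85.3 and 76.4 CPM in Inflachromene 11 and 35, against 73.0 and 72.5 CPM in Carrier 12 and 31. Its groups did not overlap, and the log2 fold change was 0.15 ± 0.15. CCNA2, encoding cyclin A2, measured 33.1 and 29.6 CPM in Inflachromene mice, against 27.7 and 32.6 CPM in Carrier mice. CCNB1, encoding cyclin B1, measured 71.8 and 56.0 CPM in Inflachromene mice, against 61.7 and 62.5 CPM in Carrier mice, with the 2 Inflachromene values on either side of the Carrier ones. CCNB2, with its row of CCAAT boxes, was placed likewise, at 39.0 and 30.8 CPM in Inflachromene mice, against 33.2 and 35.5 CPM in Carrier mice. FOXM1, a transcription factor of mitotic genes, measured 28.1 and 22.8 CPM in Inflachromene mice, against 23.3 and 26.5 CPM in Carrier mice. MYBL2, which encodes B-MYB, measured 29.2 and 23.5 CPM in Inflachromene mice, against 25.3 and 27.5 CPM in Carrier mice (log2 fold change -0.00). At CCNA2, FOXM1 and MYBL2 too the groups overlapped, and Inflachromene 11 was the highest library at all 6 genes.

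Of the 6 mitotic kinases and checkpoint genes, 2 lay above 0 and 4 below (median -0.03), with the same counts when fitted alone and with the window offset, 3 and 3 with DESeq2's size factors, and none past the test. BIRC5, encoding survivin of the chromosomal passenger complex, measured 36.4 and 34.8 CPM in Inflachromene 11 and 35, against 34.9 and 43.1 CPM in Carrier 12 and 31. Carrier 31 alone was high there, and the log2 fold change of -0.13 ± 0.16 was the lowest of the 48. PLK1 measured 43.5 and 34.7 CPM in Inflachromene mice, against 42.2 and 40.4 CPM in Carrier mice (log2 fold change -0.08 ± 0.16). AURKB, the kinase of the passenger complex, and BUB1B, a checkpoint protein, had log2 fold changes of -0.05 and -0.01. AURKA, the spindle pole kinase, and BUB1, a kinetochore kinase of the checkpoint, had 0.10 and 0.16; for BUB1 the surrounding window of 10 Mb was higher by 0.17 in the Inflachromene libraries.

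Of the 10 kinetochore, spindle and chromosome structure genes, 6 lay above 0 (median 0.02), but 3 when fitted alone and 4 with the window offset, so that the balance turned with the scaling, and none passed the test. MKI67, which coats mitotic chromosomes and is used as a proliferation marker, measured 58.9 and 46.6 CPM in Inflachromene 11 and 35, against 44.4 and 47.4 CPM in Carrier 12 and 31. Inflachromene 11 alone was high, the log2 fold change was 0.20 ± 0.16, and the window of 10 Mb around it was higher by 0.12. TOP2A, the topoisomerase that untangles sister chromatids, measured 87.8 and 94.8 CPM in Inflachromene mice, against 88.3 and 97.0 CPM in Carrier mice, and the groups overlapped. TPX2 measured 129 and 113 CPM in Inflachromene mice, against 114 and 125 CPM in Carrier mice. CENPF, a kinetochore protein, measured 65.1 and 58.2 CPM in Inflachromene mice, against 65.9 and 63.8 CPM in Carrier mice (log2 fold change -0.07 ± 0.15), in a window of 10 Mb whose own log2 difference was -0.11. Both genes of the anaphase group lay above 0, though 1 of 2 with the window offset: CDC20 had a log2 fold change of 0.11 and UBE2C, a ubiquitin-conjugating enzyme of the anaphase-promoting complex, one of 0.05 with groups that did not overlap.

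**Figure D4:**
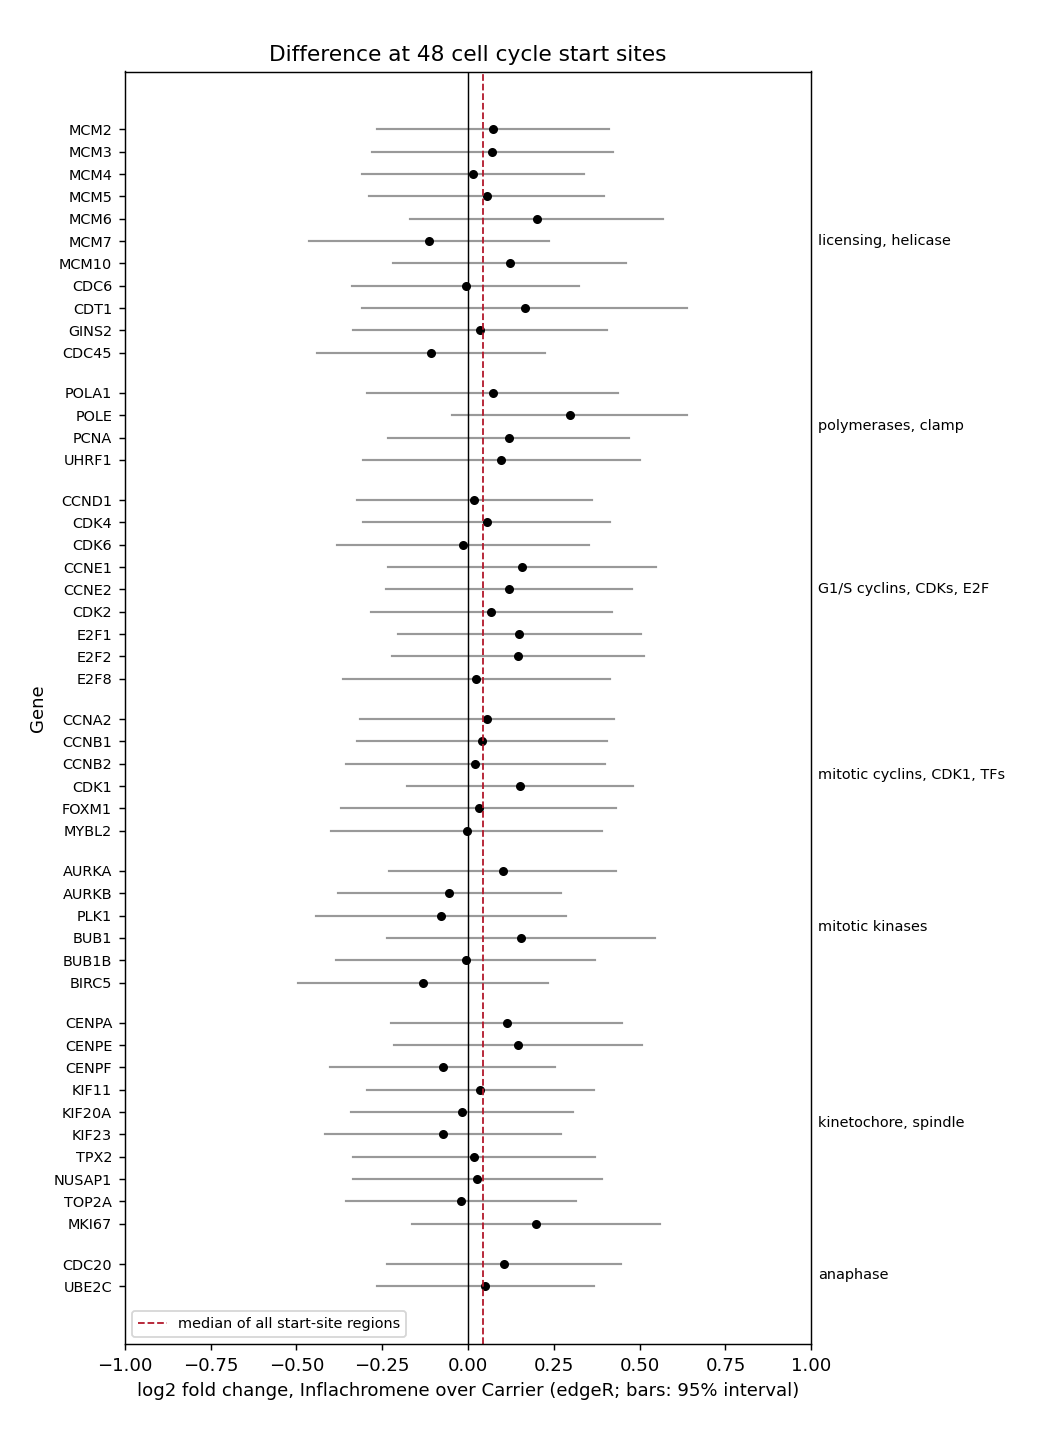
Log2 fold change of start-site accessibility, Inflachromene over Carrier, for 48 cell cycle genes grouped by role, with 95% intervals from edgeR as bars; the dashed red line is the median of all start-site regions (0.04). Every interval includes 0, and every interval lies between -1 and 1.

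Sorting start-site regions of all genes by the letters in their promoters gave medians close to each other. Regions with an E2F core (1798) had a median log2 fold change of 0.05, those with a CHR and a CCAAT box (459) one of 0.04, and those with neither an E2F core nor a CHR (6974) one of 0.05. Of these, 69.7%, 68.4% and 66.5% lay above 0, and edgeR called 0 in each class.

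Outside the start sites the 48 genes had 89 further consensus regions overlapping the gene or the 10 kb either side, called distal here. Of the 89, 44 overlapped the gene and 45 lay outside. Of these, 15 are start-site regions of other genes, and 3 hold another listed start of a member (MCM7, PCNA and CDK6). Some, such as that just before CDT1, also lie within 1000 bp of a member's start but were not the nearest region. CDK6, a long gene, held 19, and only 0.321% of protein-coding genes with a start-site region held more. No other member had over 4, and 12 had none. Per 100 kb the median was 3.17 distal regions for the 48 genes, against 2.82 for all genes with a start-site region. Distal regions were weaker, from 2.26 to 66.8 CPM where they were no gene's start-site region. The highest of these values was at the region that holds the first listed start of MCM7. Over all 89, start-site regions of other genes included, the median CPM per kb was 12.8, against 55.8 at the start sites.

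No distal region passed the adjusted threshold (0 of 89 by edgeR and 0 by DESeq2 among those it gave an adjusted p), 43 lay above 0 and 46 below, and the median log2 fold change was -0.01, as over all regions away from start sites. An unadjusted p under 0.05 was reached by 4 of the 89, against 5.30% of consensus regions that are no gene's start-site region. This background, also used for the other shares here, holds no start-site regions. Among the 89, 15 are start-site regions of other genes, so the 89 and the background are not of the same make-up. Groups did not overlap at 15 with Inflachromene higher, against a background of 13.8%, and at 18 with Inflachromene lower, against 20.7%. The lowest of them, 4474 bp upstream of the POLE start-site region at chr12:132691219-132692182, measured 2.29 and 2.95 CPM in Inflachromene 11 and 35, against 5.49 and 4.70 CPM in Carrier 12 and 31. Both Inflachromene values were below both Carrier values (log2 fold change -0.95 ± 0.26, edgeR unadjusted p 0.0050), opposite in sign to the start site of the same gene. The region held only 54 to 166 counts a library, and DESeq2 gave an unadjusted p of 0.027 and no adjusted p. A region just before CDT1 (chr16:88802180-88803206) measured 7.19 and 7.14 CPM in Inflachromene mice, against 12.6 and 9.06 CPM in Carrier mice. Its log2 fold change was -0.60, beside 0.16 at the start-site region. This region also lies within 1000 bp of the CDT1 start and is called distal because the start-site region lies nearer. Both values thus come from close to the same start.

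On the higher side, a region inside MCM5 (chr22:35426150-35427110) measured 4.53 and 5.61 CPM in Inflachromene 11 and 35, against 3.38 and 2.26 CPM in Carrier 12 and 31 (log2 fold change 0.85 ± 0.28, edgeR unadjusted p 0.015). It held 59 to 186 counts a library, and DESeq2 gave an unadjusted p of 0.046 and no adjusted p. A region outside TPX2 (chr20:31730548-31731496) measured 8.59 and 15.0 CPM in Inflachromene mice, against 7.91 and 7.41 CPM in Carrier mice, with Inflachromene 35 as the high library and a log2 fold change of 0.62. The next in order were regions near CCND1 (0.30), in BUB1 (0.37) and in CDK6 (0.42 and 0.40) on the higher side, and near CCNE2 (-0.46), in CDK6 (-0.46), in CDC6 (-0.36) and near CDK4 (-0.31) on the lower, none with an unadjusted p under 0.05. Without Inflachromene 11, 4 distal regions passed the adjusted threshold in edgeR: those of TPX2 (0.96) and MCM5 (0.99), 1 in CDK6 (0.71) and 1 beyond CDC6 (-0.70). In that fit, which compares 1 Inflachromene library with 2 Carrier libraries and assumes that the lone library varies like the Carrier ones, 6.26% of all consensus regions were called.

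The 19 distal regions of CDK6, a gene of 231.7 kb, all overlapped it, though that at its first listed start reached past the gene's bounds. Per 100 kb of gene and flanks it had 7.55, fewer than CDC20 (12.4), CDK4 (12.2) and CDC6 (10.9) among others. Of its 19 distal regions 13 lay above 0 (median 0.14) and 13 were highest in Inflachromene 35, against 34.8% of all regions away from start sites highest in that library. Their summed level was 184 and 226 CPM in Inflachromene 11 and 35, against 188 and 185 CPM in Carrier 12 and 31, so that 1 library stood apart and the other 3 were close together. At chr7:92752013-92752988 the values were 10.4 and 16.9 CPM in Inflachromene mice, against 9.80 and 10.9 CPM in Carrier mice. At chr7:92691303-92692246, in contrast, both Inflachromene libraries were lower, at 5.50 and 5.36 CPM, against 7.98 and 6.92 CPM in Carrier mice. Of the whole neighbourhood's counts the CDK6 start site took 26.6% and 18.8% in Inflachromene 11 and 35, against 23.4% and 25.2% in Carrier 12 and 31. The peak at the first listed start of CDK6 was weak, at 13.6 and 11.99 CPM in Inflachromene mice, against 9.07 and 13.0 CPM in Carrier mice, while the second listed start holds the main region.

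**Figure D5:**
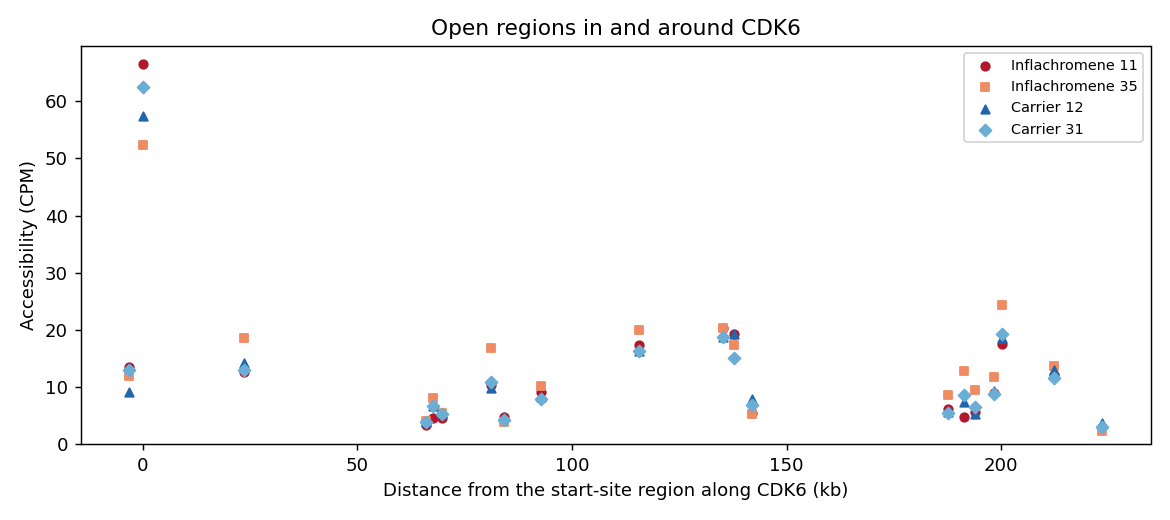
Accessibility in CPM of the start-site region (distance 0) and the 19 distal regions of CDK6, plotted by distance along the gene in kb, with 1 point for each library (red circles Inflachromene 11, orange squares Inflachromene 35, dark blue triangles Carrier 12, light blue diamonds Carrier 31). The orange squares of Inflachromene 35 are lowest at the start site (52.3 CPM) and highest at 13 of the 19 distal regions.

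Summing each gene with its surroundings gave 1 value a gene for 16451 protein-coding genes. Among the 48, 29 lay above 0 and 19 below, with a median log2 fold change of 0.02, against 0.01 over all genes, and a range from -0.15 to 0.18. With edgeR 0 of 48 passed the adjusted threshold, beside 0% of all genes (smallest adjusted p 0.978), and none had an unadjusted p under 0.05, against 4.75% of all genes. The groups did not overlap at 11 of the 48 with Inflachromene higher, against 17.0% of genes, and at 8 with Inflachromene lower, against 16.1%.

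The rest of the pathway was read at start sites from 3 wider lists. Their counts above 0 come from the fit over all consensus regions, in which 65.6% of all start-site regions lay above 0. With start sites fitted alone that share of all start-site regions was 49.5%. Of 45 genes for origins, the replisome and nucleotide supply, all had a start-site region, 34 lay above 0 and none passed the test in either direction. RRM1, a subunit of ribonucleotide reductase, measured 67.2 and 60.6 CPM in Inflachromene 11 and 35, against 44.5 and 57.3 CPM in Carrier 12 and 31, without overlap (log2 fold change 0.33 ± 0.17), in a window of 10 Mb that was higher by 0.17. ORC4, of the origin recognition complex, and CLSPN, which encodes claspin of the replication checkpoint, had 0.25 and 0.20, and RFC3, a clamp loader subunit, -0.24. Of 38 regulators around RB, E2F, DREAM and the cyclin-dependent kinases, 34 had a start-site region, 28 of these lay above 0 and none passed the test. RB1, CDKN2A, CDKN2B and CCND2 had no start-site region among the consensus regions. CDKN1C and CDKN1B, both inhibitors of cyclin-dependent kinases, had log2 fold changes of 0.24 and 0.22, WEE1, the inhibitory kinase of CDK1, 0.23, and FBXW7, which targets cyclin E for degradation, 0.21. Of 44 further mitosis genes 43 had a region, 32 lay above 0 and none passed the test. SGO1, the protector of centromeric cohesion, measured 92.5 and 92.7 CPM in Inflachromene mice, against 61.4 and 79.5 CPM in Carrier mice (log2 fold change 0.39 ± 0.17, edgeR unadjusted p 0.039, adjusted p 0.9996), in a window that was higher by 0.15. KIF18A, a mitotic kinesin, had 0.26, and ANLN, encoding anillin of the cleavage furrow, and CDCA3 had 0.18 each. ORC4 shares its region with MBD5, CDKN1B with GPR19, KIF18A with METTL15 and ANLN with MATCAP2, and for CDKN1C and WEE1 a gene end was used. The windows of 10 Mb around ORC4, CDKN1C, WEE1 and KIF18A were also higher in Inflachromene mice, by 0.20, 0.17, 0.17 and 0.19, and the part of copy number in these values was not tested.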

How the data were processed

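Chromatin accessibility was profiled in nuclei of 4 libraries, prepared with the Chromium single-cell ATAC kit per the labels' protocols. Peaks and raw counts (whole numbers for each peak in each barcode, not normalized) were deposited by the authors per library. GRCh38, Cell Ranger ARC and Cell Ranger ATAC 2.1.0 are named in the submitters' processing notes; settings, and how peaks and barcodes were chosen: not given in the sources used here. Between 82.4% and 84.9% of entries were even, so 2 counts are often the ends of 1 fragment. The peak lists differ between libraries and covered 67.0 and 82.4 Mb in Inflachromene 11 and 35, against 67.2 and 64.9 Mb in Carrier 12 and 31.

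Peaks on chromosomes 1 to 22 and X overlapping by at least 1 bp were merged; of 128195 merged regions, 50771 had a peak in every library (consensus regions, median width 936 bp) and held 83.1% to 89.8% of counts. Where a library lacked a peak, it has no value rather than 0. The mouse is the replicate, so all barcodes of a library were added up, and the sums were tested with edgeR 4.0.16 in R 4.3.3 (TMM factors 0.975 to 1.03, filterByExpr, which removed 0 regions, quasi-likelihood test, Benjamini-Hochberg adjustment over the whole table, threshold 0.05); DESeq2 1.42.0 was the other tool. Standard errors and 95% intervals come from the quasi-likelihood statistic. Scripts were tested on simulated data. Doublets were not sought, as barcodes were summed.

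RefSeq starts, promoter sequences and gene bounds are from GRCh38.p14. A start-site region lies within 1000 bp of a start (or, with none placed, of the gene end with the higher level). Where several regions lay that close to a placed start, the nearest was taken and the others were counted as distal. The members, role groups, wider lists and tests were chosen with earlier results of these data known. Named genes follow a rule: the highest and lowest start sites, leading genes of each role, up to 5 start sites and up to 6 distal regions in each direction by smallest unadjusted p, and up to 4 genes of each wider list. The promoters printed were chosen after their motifs were seen.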

Additional observations from a re-analysis of the deposited data

How the results depend on the processing

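None of the 48 start sites and none of the 48 gene neighbourhoods was called under any of the alternatives run. These were DESeq2, its size factors in edgeR, no filter or a mean of at least 10 CPM, and deep barcodes. Others were barcodes with a count in place of counts, stricter peaks or overlap, and an offset for windows of 10 Mb. Shared barcodes were also kept in 1 library, start sites were fitted alone and each library was left out. Over all features, DESeq2 called 9 of 16451 neighbourhoods and 28 of 42896 regions. Over 15 settings 720 single start-site values were compared, of which 85 changed sign and 16 moved by over 1 standard error. The setting without a filter repeats the main fit, since filterByExpr removed 0 regions, so its 48 values could not change. The median log2 fold change of member start-site regions ran from -0.03 to 0.14 with 1 library left out (-0.03 without Inflachromene 11, 0.14 without Inflachromene 35, -0.02 without Carrier 12 and 0.12 without Carrier 31). With the offset for windows of 10 Mb it was 0.015, with 27 of the 48 above 0. The median log2 fold change of member distal regions, -0.01, became 0.037 with a mean of at least 10 CPM and 0.039 for the gene bodies alone, and ran from -0.0252 to 0.0377 with 1 library left out; the number of distal regions called ran from 0 to 4, with 4 without Inflachromene 11. The cause was not tested. The median percentile of start-site levels was 70.0 with deep barcodes, against 69.7. No paired analysis was possible because the mouse numbers are not shared between the groups. With 2 mice a group, single start sites are resolved only to the bounds given (-0.494 to 0.639). Motif content beyond the promoter windows and copy number other than through the windows of 10 Mb were not analysed here.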

Other observations

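Peaks present in some libraries only lie outside the tests, which need a value in every library. Within the 48 genes and 10 kb either side there were 234 merged regions, of which 137 (58.5%) had a peak in all 4 libraries, against 39.6% of merged regions in general. The 137 include the start-site regions of the 48 genes, which have a peak in every library by definition. The share of start-site regions was not matched in this comparison or in those that follow. Peaks in both Inflachromene libraries and neither Carrier library numbered 3 (1.28%, against 3.64% in general), near CDK6, POLE and CDC6. Peaks in both Carrier libraries and neither Inflachromene library also numbered 3 (1.28%, against 1.60%), near KIF23, TOP2A and PCNA. The peak before CDC6, an MCM loader, at chr17:40283573-40284744 held 234 and 457 counts in Inflachromene 11 and 35, and the one near KIF23, a motor of cytokinesis, at chr15:69457493-69458397 held 259 and 284 counts in Carrier 12 and 31. Peaks called in 1 library alone numbered 21 for Inflachromene 35 (8.97% of the regions near the 48 genes, against 15.3% of all merged regions) and 20 for Inflachromene 11 (8.55%, against 7.49%). They numbered 12 for Carrier 12 (5.13%, against 6.87%) and 11 for Carrier 31 (4.70%, against 5.47%). Presence moves with how much was called in each library and carries no test here.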
